A study of Mus musculus with 10 samples.

Results

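Goblet cell products and regulators are 10 genes of the colonic secretory lineage, taken as the entries of the TPM table whose gene name was Muc2, Clca1, Fcgbp, Tff3, Agr2, Spink4, Atoh1, Spdef, Foxa3 or Creb3l1. They make up 10 of the 55487 genes listed, 6 of them products of the cell and 4 of them transcription factors, and each name matched a single entry. Intestinal epithelial cells (IECs) were released from colons with EDTA and DTT, and their RNA was sequenced in 10 libraries, 5 from wild type (WT) mice and 5 from RhoB-/- mice. RhoB-/- mice carry a germline deletion of Rhob, which encodes a small GTPase that acts on the actin cytoskeleton and on vesicle traffic. All animals were young adults of the C57BL/6J strain without a stated treatment. The RhoB-/- line was made at a model organism centre, and the methods describe male WT mice bought from another supplier, so genotype and source of the animals cannot be told apart. TPM scales each gene by its length and by the library, and keeps no sequencing depth. The deposited values summed to between 971419 and 993229 in a library.

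Goblet cells fill apical granules with the gel-forming mucin Muc2 and release them to build the mucus that covers the colon. Atoh1 commits crypt progenitors to the secretory fate, and Spdef and Foxa3 act later, in the maturation of goblet cells. The mucin is folded in the endoplasmic reticulum with the help of Agr2, and after secretion Fcgbp, Clca1 and Tff3 join it in the mucus layer.

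Rhob itself was read in each library as a check of the labels. Its level was 171, 303, 365, 333 and 389 TPM in WT replicates 1 to 5. It was 0.09, 0.1, 0.35 and 0.57 TPM in RhoB-/- replicates 1 to 4, and 111 TPM in the library labelled RhoB-/- replicate 5. That library therefore goes against its label at this gene, although it stayed below each WT library. The limma tests of the members and the counts of calls in each list are given with and without it, and the tests of ratios only in part. On the axis that carried 36.4% of the variance of log2(TPM + 1), it lay at 41.9, farther from the WT libraries, at -48.7 to -22.3, than the other RhoB-/- libraries, at 24.8 to 36.5. Epcam, an adhesion molecule of epithelial cells, averaged 1157 ± 126 TPM in WT and 1424 ± 217 TPM in RhoB-/- (SD, n = 5 each), and Car1, a carbonic anhydrase of colonocytes, was the most abundant marker of the absorptive cells at 12755 and 17151 TPM.

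All positions are on GRCm38 from GENCODE M21, and no other annotated gene overlapped any of the 10 loci. Chromosome 7 holds Muc2 (ENSMUSG00000025515, chr7:141690340-141754693, plus strand), Fcgbp (ENSMUSG00000047730, chr7:28071236-28120862, plus strand) and Foxa3 (ENSMUSG00000040891, chr7:19013284-19023538, minus strand). Tff3 (ENSMUSG00000024029, chr17:31125306-31129646) and Spdef (ENSMUSG00000024215, chr17:27714352-27728955) lie on the minus strand of chromosome 17. Clca1 (ENSMUSG00000028255) lies at chr3:145003817-145032776 on the minus strand, and Creb3l1 (ENSMUSG00000027230) at chr2:91982328-92024502 on the minus strand. Agr2 (ENSMUSG00000020581, chr12:35992907-36004087), Spink4 (ENSMUSG00000028415, chr4:40920052-40931395) and Atoh1 (ENSMUSG00000073043, chr6:64729125-64731245) are on the plus strand. Atoh1 is a gene of 1 exon, whereas the longest annotated transcript of Fcgbp has 20 exons and 7928 nt. The longest Muc2 transcript of that annotation has 2926 nt. Because the annotation behind the deposited TPM is not given in the sources used here, the length by which Muc2 was divided is unknown, and its level against other genes depends on it.

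RefSeq promoter windows on GRCm38.p6, from 250 bases before the start of a gene to 50 after it, were matched for 6 of the 10 genes, namely Muc2, Fcgbp, Agr2, Spdef, Atoh1 and Foxa3. Clca1, Tff3, Spink4 and Creb3l1 had no matched window. Each window was searched on both strands for GGAT, the core bound by Spdef, for CAGCTG, an E-box of Atoh1, for TGTTTAC, a forkhead motif, and for TGACGT, a cyclic AMP response element half-site of the Creb3l1 family. The windows of Muc2, Fcgbp, Agr2 and Spdef are shown because these genes encode the mucin, a partner of it in the mucus, its folding factor and a regulator of the lineage. Capitals mark the matches, none of which shared a base with a match of another motif. Muc2 is at chr7:141690090-141690389 (plus strand), Fcgbp at chr7:28070986-28071285 (plus strand), Agr2 at chr12:35992675-35992974 (plus strand) and Spdef at chr17:27728902-27729201 (minus strand).
Muc2: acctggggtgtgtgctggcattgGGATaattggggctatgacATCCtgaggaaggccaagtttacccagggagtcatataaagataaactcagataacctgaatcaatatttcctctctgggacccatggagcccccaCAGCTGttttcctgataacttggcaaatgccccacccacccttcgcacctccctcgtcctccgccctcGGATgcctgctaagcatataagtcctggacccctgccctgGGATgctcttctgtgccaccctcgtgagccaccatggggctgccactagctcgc
Fcgbp: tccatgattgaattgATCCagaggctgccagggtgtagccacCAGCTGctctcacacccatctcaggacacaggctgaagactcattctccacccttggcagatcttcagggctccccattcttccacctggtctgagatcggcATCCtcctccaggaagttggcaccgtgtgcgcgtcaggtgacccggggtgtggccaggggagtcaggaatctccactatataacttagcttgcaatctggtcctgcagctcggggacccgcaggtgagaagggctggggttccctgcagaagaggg
Agr2: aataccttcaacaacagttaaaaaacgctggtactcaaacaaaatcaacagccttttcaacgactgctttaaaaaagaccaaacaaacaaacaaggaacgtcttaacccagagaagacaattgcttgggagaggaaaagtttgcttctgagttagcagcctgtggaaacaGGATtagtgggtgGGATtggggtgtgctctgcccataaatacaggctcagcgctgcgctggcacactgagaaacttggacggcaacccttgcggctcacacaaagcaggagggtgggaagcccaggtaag
Spdef: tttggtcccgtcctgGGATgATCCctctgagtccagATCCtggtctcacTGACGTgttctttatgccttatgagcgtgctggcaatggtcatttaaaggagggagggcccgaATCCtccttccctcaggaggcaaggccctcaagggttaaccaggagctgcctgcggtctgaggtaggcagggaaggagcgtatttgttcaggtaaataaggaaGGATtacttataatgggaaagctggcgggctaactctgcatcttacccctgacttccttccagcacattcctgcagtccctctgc

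GGAT occurred 4 times in the Muc2 window, 2 times in that of Fcgbp, 2 times in that of Agr2, 5 times in that of Spdef and 4 times in that of Foxa3. Those letters were present in 79.6% of the 32851 promoters of the same length. CAGCTG was found in Muc2, 112 bases before the start, and in Fcgbp, 208 bases before it, against 16.3% of all promoters. TGACGT was found in Spdef, 201 bases before the start, against 7.51% of all promoters, and TGTTTAC, found in 3.65%, was in none of the 6 windows. None of the 4 motifs was in the Atoh1 window. These matches are a description of letters, and binding was not measured.

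In RhoB-/- IECs compared with WT, transcripts of Clca1, Fcgbp and Spink4 rose, the transcription factor Creb3l1 fell, and Muc2, Tff3, Agr2, Spdef, Atoh1 and Foxa3 did not pass the threshold. All 10 genes passed the filter of a mean of at least 1 TPM, which left 12870 genes. Each was tested with limma on log2(TPM + 1), with p-values adjusted by the Benjamini-Hochberg method over all genes tested and a call at an adjusted p below 0.05. By this rule 3 of 10 members were higher and 1 of 10 was lower, against 7.73% and 13.5% of all tested genes (995 higher and 1734 lower). Each of the 5 RhoB-/- libraries exceeded the highest WT library for 3 of 10 members, and each lay under the lowest WT library for 1 of 10, against 5.97% and 8.55% of all tested genes. The share of members that fell is thus near the background, so the fall of Creb3l1 is a result about that gene alone. Without the library labelled RhoB-/- replicate 5, 2 of 10 members were higher, Spink4 having lost its call, and 1 was lower. In that fit 719 of all tested genes were higher and 1116 lower, fewer than the 995 and 1734 above. The filter was applied anew there, so 12870 may not be the number tested, and no share is given. Counts given below without that library stand against these numbers, whereas 7.73% and 13.5% belong to the main fit of 10 libraries. Counts under any other alternative stand against all calls of that same fit. With a library left out, all calls ran from 719 to 1154 higher and from 853 to 2868 lower. The p-values measure the spread between these libraries. In bulk RNA, fewer cells of a type and less RNA per cell cannot be told apart.

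**Figure D1:**
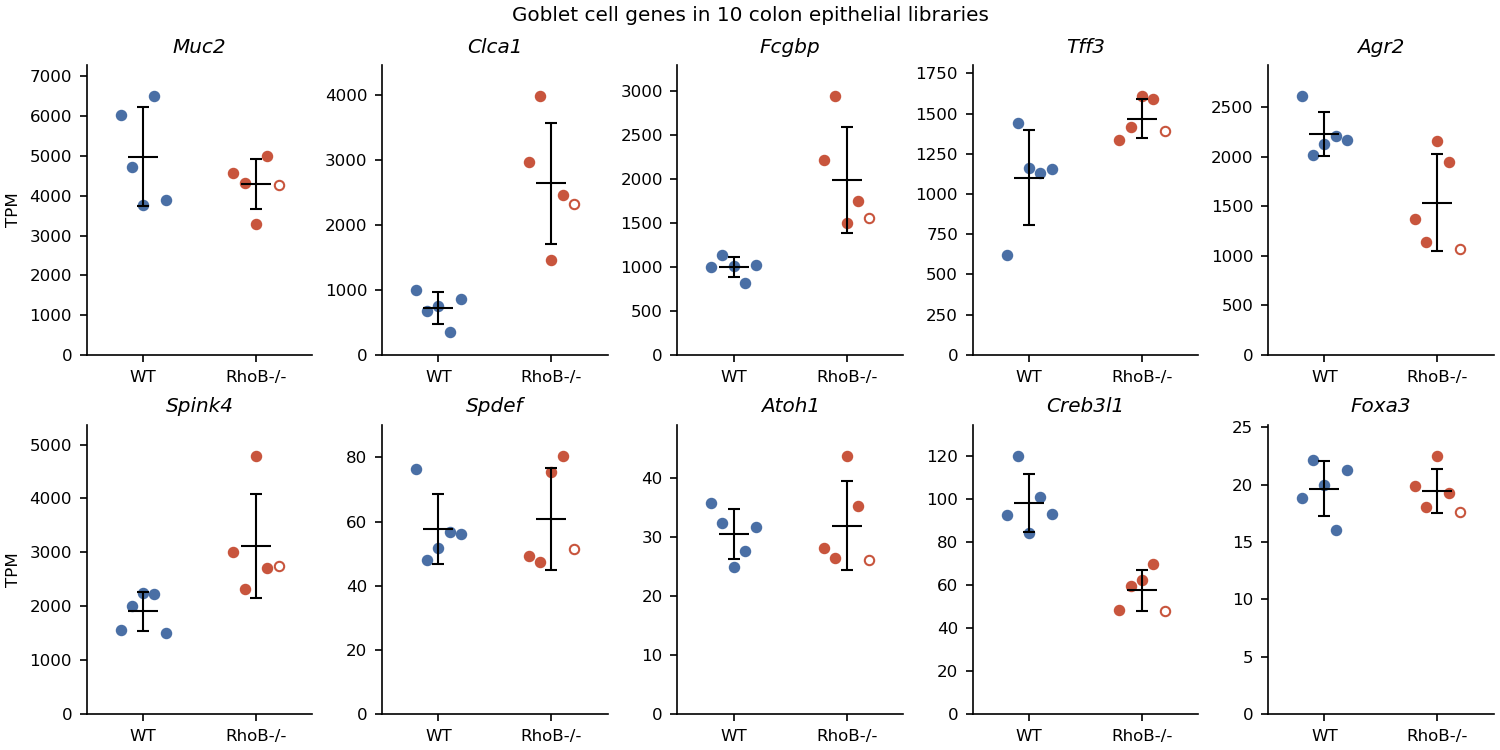
TPM of the 10 goblet cell genes in each library, with WT in blue and RhoB-/- in red; every axis starts at 0, bars show the mean and SD of 5 libraries, and the open circle is the library labelled RhoB-/- replicate 5. The groups do not overlap for Clca1, Fcgbp, Spink4 and Creb3l1, and they overlap for the other 6 genes.

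Clca1 encodes a secreted metalloprotease that is a major protein of colonic mucus and can process Muc2. Its level was 1005, 670.1, 748, 348 and 857 TPM in WT replicates 1 to 5. In RhoB-/- replicates 1 to 4 it was 2966, 3983, 1458 and 2469 TPM, and in the library labelled RhoB-/- replicate 5 it was 2328 TPM. Every RhoB-/- library was above every WT library, with the lowest RhoB-/- value in replicate 3 and the lowest WT value in replicate 4. The mean rose from 726 ± 246 to 2641 ± 927 TPM (SD, n = 5 each). The log2 fold change was 1.87 ± 0.30 (SE), a 3.66-fold rise with a 95% interval of 2.31 to 5.78, at a limma adjusted p of 0.00164. It was 1.90 with an adjusted p of 0.00469 without the library labelled RhoB-/- replicate 5. Clca1 has close relatives on the same chromosome. The paper names RSEM for the quantification of genes. How reads shared among these relatives were divided is not given beyond that in the sources used here.

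Fcgbp encodes a large mucus protein built of repeated von Willebrand factor type D domains. It was at 1001, 1140.5, 1017, 813 and 1027 TPM in WT replicates 1 to 5. It was at 2219, 2941, 1497 and 1748 TPM in RhoB-/- replicates 1 to 4, with 1559 TPM in the library labelled RhoB-/- replicate 5. The groups did not overlap, the WT libraries were tightly placed, and RhoB-/- replicates 1 and 2 were the highest of all. The coefficient of variation was 11.8% in WT and 30.2% in RhoB-/-. Fcgbp had a log2 fold change of 0.96 ± 0.19 (SE), or 1.94-fold with a 95% interval of 1.46 to 2.57 (limma adjusted p = 0.00482). Without the library labelled RhoB-/- replicate 5 it was 1.03 (adjusted p = 0.00666).

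Spink4 encodes a small secreted protein of the Kazal family of serine protease inhibitors. Its level was 1553, 2013, 2244, 2227 and 1498 TPM in WT replicates 1 to 5. It was 3014, 2329, 4797 and 2704 TPM in RhoB-/- replicates 1 to 4 and 2747 TPM in the library labelled RhoB-/- replicate 5. The groups did not overlap, but the lowest RhoB-/- library, replicate 2, was close to WT replicates 3 and 4, and RhoB-/- replicate 3 stood far above the rest. The log2 fold change was 0.68 ± 0.20 (SE), 1.61-fold with a 95% interval of 1.18 to 2.18, at a limma adjusted p of 0.0328. Without the library labelled RhoB-/- replicate 5 the log2 fold change of Spink4 was 0.72 and the call was lost (adjusted p = 0.0543). The call was also lost without RhoB-/- replicate 1 (adjusted p = 0.0661) or 4 (0.0501), without WT replicate 1 (0.0635), 2 (0.0589) or 5 (0.0766), with no filter on low TPM (0.119) and after quantile normalization (0.107), while the range over the 18 alternatives was 0.0167 to 0.119.

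Muc2, the main mucin, had the highest mean of the members in both genotypes, although Spink4 was above it in RhoB-/- replicate 3. It was at 6028, 4721, 3759, 6500.2 and 3896 TPM in WT replicates 1 to 5. It was at 4565, 4327, 3294 and 5005 TPM in RhoB-/- replicates 1 to 4, with 4279 TPM in the library labelled RhoB-/- replicate 5. The groups overlapped, and WT replicates 1 and 4 were the highest libraries. Muc2 had a log2 fold change of -0.19 ± 0.18 (SE; limma adjusted p = 0.474), with a 95% interval from -0.59 to 0.21, so that a fall to 0.663-fold or a rise to 1.16-fold lay within it. Muc2 ranked between 12 and 20 among all genes in the 10 libraries.

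Tff3, a trefoil peptide that takes part in mucosal repair, was at 620.5, 1439, 1165, 1133 and 1153 TPM in WT replicates 1 to 5. The RhoB-/- libraries lay between 1337 and 1608 TPM, and 4 of the 5 WT libraries lay below all of them. WT replicate 2 fell inside the RhoB-/- range, and WT replicate 1 was the lowest of the 10. The log2 fold change of Tff3 was 0.46 ± 0.19 (SE) at a limma adjusted p of 0.107. It was 0.27 without WT replicate 1 (adjusted p = 0.137), and after quantile normalization the adjusted p was 0.0325, within a range over the alternatives of 0.0325 to 0.233.

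Agr2 encodes a protein disulfide isomerase of the endoplasmic reticulum that Muc2 production requires. It was at 2613, 2022, 2134, 2212 and 2173 TPM in WT replicates 1 to 5. It was at 1374, 1144, 2162 and 1945 TPM in RhoB-/- replicates 1 to 4, with 1068 TPM in the library labelled RhoB-/- replicate 5. RhoB-/- replicates 1 and 2 and the library labelled RhoB-/- replicate 5 were thus far below WT, RhoB-/- replicate 4 was just below it and RhoB-/- replicate 3 was inside its range. The log2 fold change of Agr2 was -0.59 ± 0.20 (SE) with a 95% interval from -1.02 to -0.16 and a limma adjusted p of 0.0523. The adjusted p passed the threshold without RhoB-/- replicate 3 (0.0103) or 4 (0.0425), with a pseudocount of 0.1 (0.0493), with a mean TPM of at least 5 (0.0465), after quantile normalization (0.0159) and after TPM was rescaled without mitochondrial genes (0.0189), and its range over the 18 alternatives was 0.0103 to 0.151. Without the library labelled RhoB-/- replicate 5 the log2 fold change was -0.47 (adjusted p = 0.12).

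Of the 4 regulators, Creb3l1 alone passed the threshold. Creb3l1 is a membrane-bound transcription factor of the endoplasmic reticulum that is cut free to act on genes of secretion. It was at 92.5, 120.3, 84.2, 101 and 93.2 TPM in WT replicates 1 to 5. It was at 48.4, 59.7, 62.6 and 69.7 TPM in RhoB-/- replicates 1 to 4, with 47.8 TPM in the library labelled RhoB-/- replicate 5. Every RhoB-/- library was below every WT library. Creb3l1 had a log2 fold change of -0.76 ± 0.13 (SE), 0.589-fold with a 95% interval of 0.481 to 0.721 (limma adjusted p = 0.00265). Without the library labelled RhoB-/- replicate 5 it was -0.70 (adjusted p = 0.00792).

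Spdef, the ETS factor of goblet maturation, was at 76.3, 47.9, 51.9, 56.8 and 56.0 TPM in WT replicates 1 to 5. It was at 49.2, 47.3, 75.6 and 80.6 TPM in RhoB-/- replicates 1 to 4, with 51.4 TPM in the library labelled RhoB-/- replicate 5. WT replicate 1 and RhoB-/- replicates 3 and 4 were high, and the other 7 libraries lay between 47.3 and 56.8 TPM. The log2 fold change of Spdef was 0.05 with a 95% interval from -0.33 to 0.44 (limma adjusted p = 0.85). Atoh1, the basic helix-loop-helix factor that sets the secretory fate, ranged from 24.9 to 35.7 TPM in WT and from 26.0 to 43.7 TPM in RhoB-/-. Its log2 fold change was 0.05 with an interval from -0.29 to 0.38 (limma adjusted p = 0.853). Foxa3, a forkhead factor, ranged from 16.1 to 22.2 TPM in WT and from 17.6 to 22.6 TPM in RhoB-/-. Foxa3 had the narrowest interval of the 10 members, from -0.25 to 0.23 around a log2 fold change of -0.01 (limma adjusted p = 0.953). With the library labelled RhoB-/- replicate 5 left out, the log2 fold changes were 0.10 for Spdef, 0.11 for Atoh1, 0.02 for Foxa3, -0.19 for Muc2 and 0.48 for Tff3, and none of the 5 was called (limma adjusted p of 0.151 or more). The sign of the differences of Spdef, Atoh1 and Foxa3 turned under some alternatives, so no direction is given for them.

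**Figure D2:**
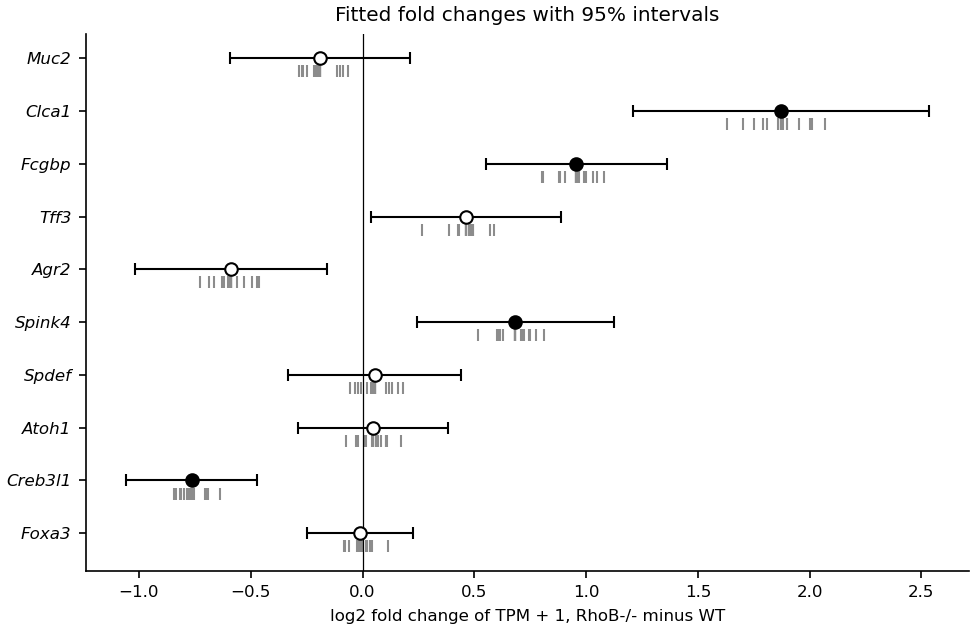
Log2 fold change of TPM + 1 (RhoB-/- minus WT) of each member, with its 95% interval from the limma fit of 10 libraries; filled circles passed an adjusted p of 0.05, and grey ticks below each circle are the values under the 18 alternatives. Clca1 at 1.87, Fcgbp at 0.96 and Creb3l1 at -0.76 were called under each alternative, and the ticks of Spdef, Atoh1 and Foxa3 straddle 0.

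The scale of the whole table moved as well. Across the 12870 tested genes, log2 fold changes centred on a median of -0.13. When fold changes were recentred on that median, Fcgbp was at 1.08, Spink4 at 0.81, Tff3 at 0.59, Agr2 at -0.46 and Creb3l1 at -0.64, and the same 3 members were called higher and the same 1 lower. Recentring changed the split of all calls from 995 higher and 1734 lower to 1443 higher and 771 lower. Mitochondrially encoded genes took 17.5% to 26.5% of TPM in WT and 10.3% to 22.4% in RhoB-/-, and with TPM rescaled without them 1076 genes were higher and 3648 lower.

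The order of the levels differed between the genotypes. In WT it ran Muc2 (4981 ± 1239 TPM, SD, n = 5), Agr2 (2231 ± 225), Spink4 (1907 ± 361), Tff3 (1102 ± 297), Fcgbp (999.7 ± 118) and Clca1 (726 ± 246). Agr2 and Spink4, Tff3 and Fcgbp, and Fcgbp and Clca1 were neighbours whose ranges overlapped in WT. In RhoB-/- the means ran Muc2 (4294 ± 629), Spink4 (3118 ± 969.5), Clca1 (2641 ± 927), Fcgbp (1993 ± 601), Agr2 (1539 ± 489) and Tff3 (1469 ± 123), and each neighbouring pair among these 6 overlapped. Clca1 was the least abundant of the 6 products by its WT mean and ranked 3 by its RhoB-/- mean. The regulators were lower, with Creb3l1 at 98.2 ± 13.7, Spdef at 57.8 ± 10.9, Atoh1 at 30.5 ± 4.21 and Foxa3 at 19.7 ± 2.38 TPM in WT. Creb3l1 was above Spdef in all 5 WT libraries, whereas Spdef was above Creb3l1 in 4 of 5 RhoB-/- libraries.

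The summed TPM of the 6 products was 12820, 12005, 11067, 13233 and 10603 in WT replicates 1 to 5. It was 15475, 16141, 14815 and 15462 in RhoB-/- replicates 1 to 4 and 13373 in the library labelled RhoB-/- replicate 5. The latter was just above the highest WT library. Within that sum Muc2 made up 41.2% ± 6.56 in WT and 28.6% ± 4.19 in RhoB-/- (SD, n = 5 each), and Agr2 made up 18.7% ± 1.85 and 10.2% ± 3.21. The share of Clca1 was 6.18% ± 2.22 in WT and 17.4% ± 5.37 in RhoB-/-, and that of Tff3 was 9.36% ± 2.81 and 9.80% ± 1.01. These shares describe the members and were not tested.

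**Figure D3:**
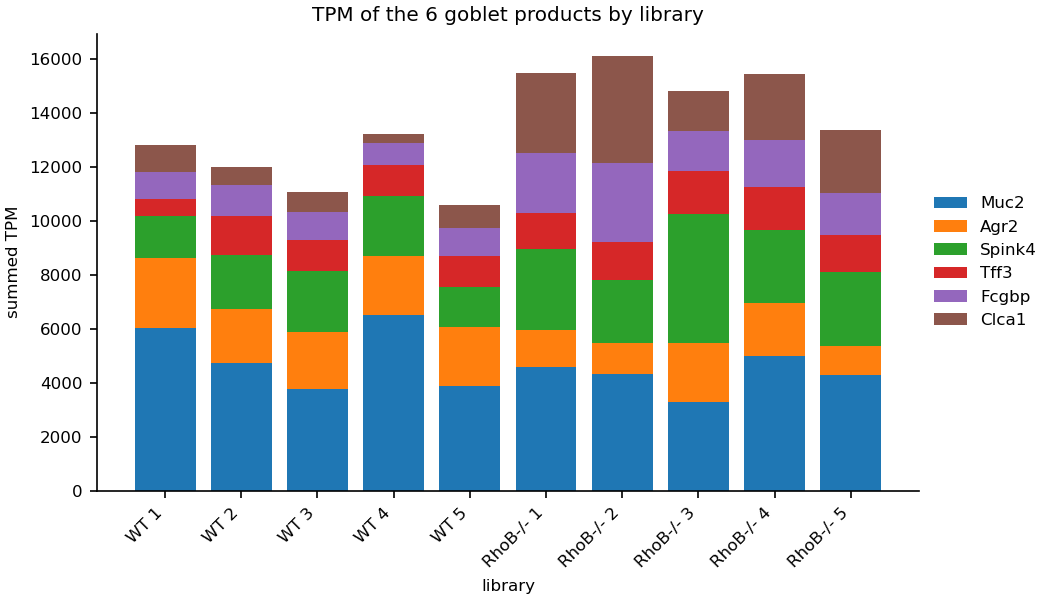
Summed TPM of the 6 goblet products in each library, stacked by gene from Muc2 at the base to Clca1 at the top; bars start at 0. The sum lies between 10603 and 13233 in WT and between 13373 and 16141 in RhoB-/-, and the upper segments, Fcgbp and Clca1, are taller in RhoB-/-.

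A ratio of a member to Muc2 within a library does not depend on how that library was scaled. The log2 ratio of Clca1 to Muc2 was -2.58, -2.82, -2.33, -4.22 and -2.18 in WT replicates 1 to 5. It was -0.62, -0.12, -1.18 and -1.02 in RhoB-/- replicates 1 to 4 and -0.88 in the library labelled RhoB-/- replicate 5. All RhoB-/- ratios were above all WT ratios, and the difference was 2.06 (exact two-sided permutation p = 0.00794, adjusted p = 0.0357 over the 9 ratios). The ratio of Fcgbp to Muc2 was also higher in every RhoB-/- library than in any WT library, by 1.15 (exact permutation p = 0.00794, adjusted p = 0.0357). The smallest p that the 252 labellings can give is 0.00794. Both held without the library labelled RhoB-/- replicate 5, at differences of 2.09 and 1.23 (exact permutation, adjusted p = 0.0357 each).

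The other 7 ratios to Muc2 did not pass the threshold. Spink4 was higher against Muc2 by 0.88 (exact permutation p = 0.0238, adjusted p = 0.0714), and by 1.03 with a call (adjusted p = 0.0238) without WT replicate 3, with all 5 RhoB-/- ratios above the WT median. Tff3 was higher by 0.65 and Creb3l1 lower at -0.57 (exact permutation p = 0.0397, adjusted p = 0.0714 for each). Agr2 against Muc2 differed by -0.40 (exact permutation adjusted p = 0.333). For Spdef, Atoh1 and Foxa3 the differences were 0.25, 0.24 and 0.18.

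**Figure D4:**
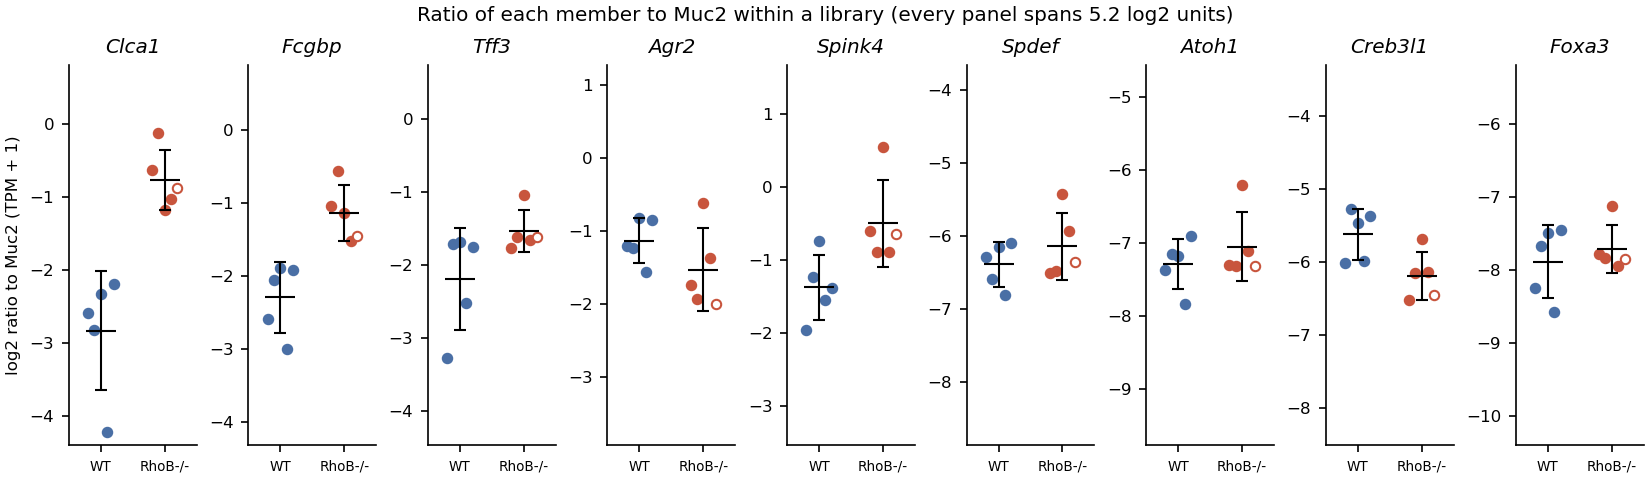
Log2 ratio of TPM + 1 of each member to Muc2 in each library, WT in blue and RhoB-/- in red, with mean and SD of 5 libraries; the open circle is the library labelled RhoB-/- replicate 5, and the panels share their span but not their centre. Clca1 and Fcgbp are the pair of members whose groups do not overlap, at differences of 2.06 and 1.15.

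Members were also set against the mean log2 level of 10 general epithelial markers. Of those markers 3 of 10 were themselves higher in RhoB-/- (Cdhr5 at a log2 fold change of 0.80, Vil1 at 0.65 and Cldn7 at 0.53) against 7.73% of all tested genes, none was lower, and their median was 0.29. Cldn7 lost its call without the library labelled RhoB-/- replicate 5 (limma adjusted p = 0.0816), which left 2 of 10, and 2 to 5 were higher with any library left out. The median of all tested genes was -0.13, and a gene without a change of its own reads lower against these markers. Against the 10 markers, Clca1 was higher by 1.496, and Agr2 (-0.96), Creb3l1 (-1.14) and Foxa3 (-0.39) were lower, each at an adjusted p of 0.0397 over the 10 members by the exact permutation test. All 5 RhoB-/- values were below all 5 WT values for Agr2 and Creb3l1. Fcgbp was higher by 0.58 (exact permutation adjusted p = 0.127), and by 0.71 with an adjusted p of 0.0476 without the library labelled RhoB-/- replicate 5. Muc2 differed by -0.57 (exact permutation adjusted p = 0.159). Without WT replicate 1 these differences were 1.70 for Clca1, -0.84 for Agr2, -1.10 for Creb3l1 and -0.34 for Foxa3, and 0 of the 4 stayed below the threshold (exact permutation adjusted p = 0.0595 each). Without WT replicate 2, 3, 4 or 5 or RhoB-/- replicate 1 or 4, 2 calls were left, those of Agr2 and Creb3l1. With a library left out, Clca1 kept its call only without RhoB-/- replicate 3 or the library labelled RhoB-/- replicate 5. Its groups overlapped, at 0.54 in RhoB-/- replicate 3 and 0.77 in WT replicate 1. The log2 fold change of Foxa3 itself was -0.01 (limma adjusted p = 0.953), so its lower ratio is not read as a fall. How many of all tested genes would pass this ratio test was not computed.

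Within a genotype the members did not vary as a single block. Over the deviations of the 10 libraries from their genotype means, 6 of the 45 pairs of members had a Pearson r beyond 0.7 in size. The points share the scaling of each library, so r is a description. Agr2 varied with Spdef (r = 0.889, rho = 0.879) and with Atoh1 (r = 0.858, rho = 0.758), and Spdef with Atoh1 (r = 0.783, rho = 0.661). RhoB-/- replicates 3 and 4 were high for these 3 genes, and without those libraries r was 0.80 for Agr2 with Spdef and 0.709 for Agr2 with Atoh1. Without WT replicate 1 and RhoB-/- replicate 4, r was 0.787 for Spdef with Atoh1. Clca1 varied with Fcgbp (r = 0.769, rho = 0.733) and against Spink4 (r = -0.793, rho = -0.758). Without WT replicate 4 and RhoB-/- replicate 3, the farthest from the median for Clca1, these were 0.685 and -0.598. Muc2 varied against Foxa3 (r = -0.712, rho = -0.648), though at -0.653 without WT replicates 3 and 4 and -0.546 without WT replicate 4 alone. Its r with Clca1 was -0.0468, and 0.522 without WT replicates 3 and 4, and its r with Spdef was 0.179, and 0.157 without them. Outside the members, the tested genes whose deviations were most like those of Muc2 over the 10 libraries were Phldb2 (r = 0.901), Zfp719 (0.893), Olfr138 (0.871), Braf (0.861) and Exog (0.858). They are the highest values picked from all tested genes over 10 points, and what chance alone would give was not tested. All 5 were low, with WT means from 1.53 TPM for Zfp719 to 6.00 ± 5.14 TPM (SD) for Exog, and none of the 5 was called between the genotypes.

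Of 24 other secreted goblet products 23 were matched, and of the 15 tested 5 were higher and 1 was lower, against 7.73% and 13.5% of all tested genes, with a median log2 fold change of 0.27 beside -0.13 for all tested genes. Without the library labelled RhoB-/- replicate 5, 5 were higher and 0 lower. The list is not one of goblet cells alone, since Guca2a also stands among the colonocyte markers below and Ang4, Itln1 and Reg4 among the Paneth and deep crypt markers. The lectin-like granule protein Zg16, one of the most abundant, averaged 3014 ± 651 TPM in WT and 3066 ± 263 TPM in RhoB-/- (log2 fold change 0.05, limma adjusted p = 0.85). Retnlb, a bactericidal resistin-like protein, was at 298, 75.2, 118, 105 and 66.0 TPM in WT replicates 1 to 5 and between 1208 and 2884 TPM in the RhoB-/- libraries. Its log2 fold change was 3.96 ± 0.37 (SE; limma adjusted p = 2.91e-05). Ang4, an antimicrobial ribonuclease, was at 379, 50.8, 209, 13.96 and 149 TPM in WT and between 1499 and 3034 TPM in RhoB-/- (log2 fold change 4.53 ± 0.69, adjusted p = 0.00112). Lypd8, which binds flagellated bacteria and is made by enterocytes of the colonic surface, was the most abundant gene of the list and rose from 5179 ± 1315 to 15941 ± 2804 TPM (log2 fold change 1.65, adjusted p = 0.000214). In these 3 genes no RhoB-/- library overlapped WT, and all 3 were called without the library labelled RhoB-/- replicate 5.

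Clca4b, a relative of Clca1, was between 1.46 and 3.24 TPM in WT and at 260.2, 7.56, 81.4 and 11.9 TPM in RhoB-/- replicates 1 to 4, with 121 TPM in the library labelled RhoB-/- replicate 5. Its log2 fold change was 4.04 ± 0.79 (SE; limma adjusted p = 0.00498), and the RhoB-/- libraries spread widely. Itln1, a lectin that binds microbial glycans, rose from 2.88 ± 2.37 to 49.5 ± 10.4 TPM (log2 fold change 3.87, adjusted p = 1.45e-05). Sval1, a secreted protein, was lower at a log2 fold change of -1.15 (adjusted p = 0.0407), and lost its call without the library labelled RhoB-/- replicate 5 (adjusted p = 0.0958), when recentred (0.0712) and with several other libraries left out. Summed over the list, TPM lay between 9237 and 14842 in WT and between 25232 and 31579 in RhoB-/-, of which Lypd8 alone made up 5179 and 15941 TPM on average.

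Goblet-enriched cell machinery comprises enzymes, channels and glycosyltransferases of the cell. Of 19 tested genes 2 were higher and 8 lower, against 7.73% and 13.5% of all tested genes, and without the library labelled RhoB-/- replicate 5 these counts were 2 and 6. The median log2 fold change was -0.08, beside -0.13 for all tested genes. Gcnt3, which branches mucin O-glycans, rose from 51.7 ± 7.005 to 99.7 ± 16.9 TPM (log2 fold change 0.93, limma adjusted p = 0.000879), and Fer1l6 rose with a log2 fold change of 0.59 (adjusted p = 0.00964). Best2, a bicarbonate channel of colonic goblet cells, fell from 14.9 ± 5.86 to 4.54 ± 3.07 TPM (log2 fold change -1.59, adjusted p = 0.00885). Tgm3, a transglutaminase that cross-links mucus and the most abundant gene of the list in WT, was lower by a log2 value of -1.15 (adjusted p = 0.0377, and 0.0863 without the library labelled RhoB-/- replicate 5). Ern2, the mucosal form of the unfolded protein sensor, was at 39.5, 44.3, 27.4, 50.04 and 33.2 TPM in WT replicates 1 to 5 and between 17.4 and 23.4 TPM in RhoB-/-. Every RhoB-/- library was below every WT library, at a log2 fold change of -0.85 ± 0.16 (SE; adjusted p = 0.00354).

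Of 22 tested genes of mucin folding in the endoplasmic reticulum, 0 were higher and 2 were lower with limma, against 7.73% and 13.5% of all tested genes, and the median log2 fold change was 0.04. The lower share was thus below that of all genes. The counts were the same without the library labelled RhoB-/- replicate 5, while 2 were higher without RhoB-/- replicate 2 and 1 when recentred. Of all tested genes 1154 were higher without RhoB-/- replicate 2 and 1443 when recentred. The pair of the list that fell were Ern2, already counted in the goblet-enriched list, and Creb3l4. Creb3l4, a relative of Creb3l1, went from 23.8 ± 1.10 to 14.9 ± 3.83 TPM (log2 fold change -0.67, limma adjusted p = 0.0086). Hspa5, the main chaperone of the compartment and the most abundant gene of the list in WT, averaged 449 ± 38.9 TPM in WT and 457 ± 80.9 TPM in RhoB-/- (adjusted p = 0.968).

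Among 21 tested regulators of the secretory lineages 1 was higher and 6 were lower, against 7.73% and 13.5% of all tested genes, with a median log2 fold change of -0.07. Sox9, a factor of crypt progenitors, fell from 23.2 ± 4.43 to 9.77 ± 1.62 TPM (log2 fold change -1.16, limma adjusted p = 0.000249). Sox4 fell with a log2 fold change of -1.04 (adjusted p = 0.000173) and Foxa2, a forkhead relative of Foxa3, with -0.84 (adjusted p = 0.00954). Cdx2, the intestinal homeobox factor, was higher at 0.42 (adjusted p = 0.0447), a call lost without the library labelled RhoB-/- replicate 5 (0.0987). Without that library 0 were higher and 4 lower, when recentred 3 were higher and 3 lower, and without mitochondrial genes 1 was higher and 8 lower. Of all tested genes 1443 were higher and 771 lower when recentred, and 1076 higher and 3648 lower without mitochondrial genes. The call of Cdx2 was also lost, with 0 of the list higher, under the replicate block, limma without trend, no filter on low TPM and the study's threshold. It was likewise lost without WT replicate 2, 3, 4 or 5 or RhoB-/- replicate 1, 3 or 4. Elf3, the most abundant of the list, averaged 430 ± 154.5 TPM in WT and 504 ± 109 TPM in RhoB-/- (adjusted p = 0.43).

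**Figure D5:**
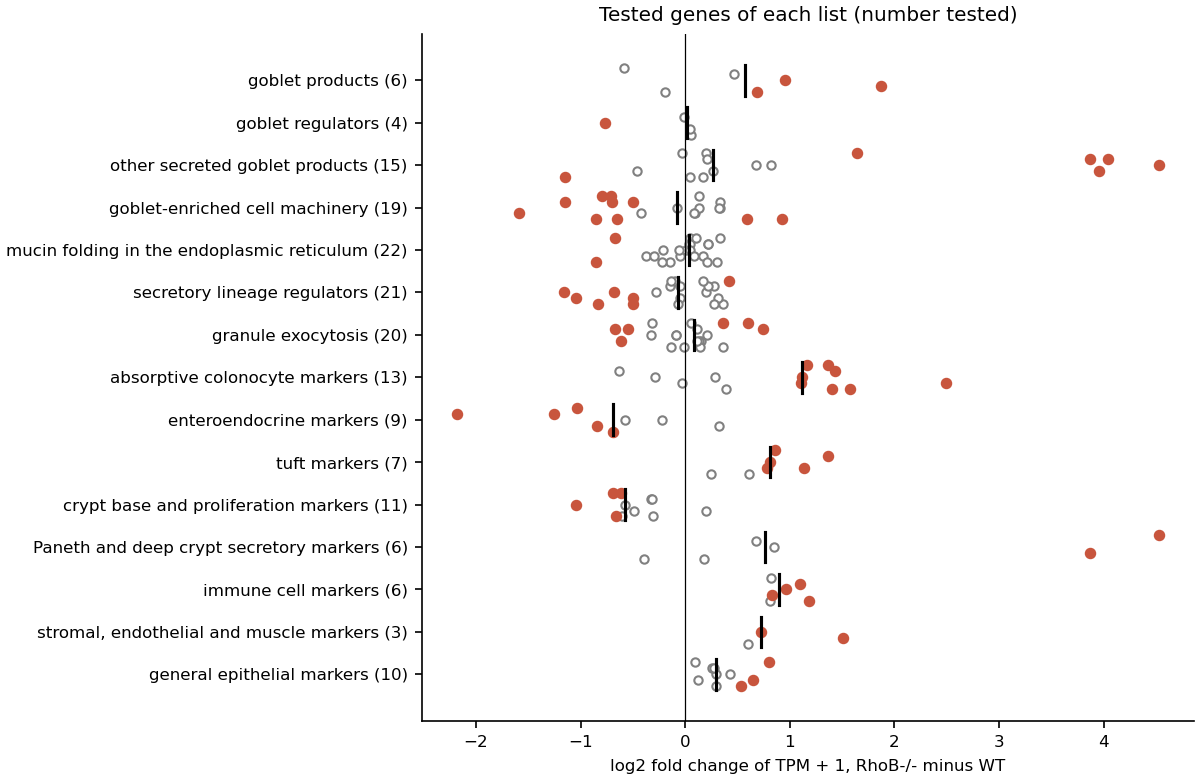
Log2 fold change of TPM + 1 (RhoB-/- minus WT) of each tested gene, by list, with the number tested in brackets; red circles passed an adjusted p of 0.05, open circles did not, and black bars are medians. Absorptive colonocyte markers have a median of 1.11 and enteroendocrine markers of -0.69, and the secreted goblet products spread from -1.15 for Sval1 to 4.53 for Ang4.

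Markers of other cell types were also called between the genotypes, and their part in the changes of the goblet genes was not tested. Their counts below from the main fit stand against 7.73% higher and 13.5% lower of all tested genes. Those under an alternative stand against all calls of that alternative. Of 13 absorptive colonocyte markers 8 were higher and 0 lower with limma, also without the library labelled RhoB-/- replicate 5. Their median log2 fold change was 1.11. Their summed TPM was 16352, 17341, 24779, 20424 and 20898 in WT replicates 1 to 5, was 22906, 20640, 31838 and 27947 in RhoB-/- replicates 1 to 4 and 38187 in the library labelled RhoB-/- replicate 5. Saa1 rose at a log2 fold change of 2.49, Tmigd1 at 1.58 and Aqp8, a water channel, at 1.43, whereas Car1, the most abundant, was at 0.39 (limma adjusted p = 0.203).

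Enteroendocrine markers, of the sister secretory lineage, were higher in 0 and lower in 5 of 9 tested genes, with a median log2 fold change of -0.69. With the library labelled RhoB-/- replicate 5 left out, 5 of 10 were lower. Chga had lost its call (limma adjusted p = 0.0571), and Insm1 had entered the test and been called (0.0494). Insm1 averaged 1.40 TPM in WT and 0.60 TPM in RhoB-/-, so it passed the filter only through WT, and its call is set aside. The count of lower genes ran from 4 to 8 with a library left out, the latter without RhoB-/- replicate 3, and was 7 without mitochondrial genes. Of all tested genes 2868 were lower without RhoB-/- replicate 3 and 3648 without mitochondrial genes, against 1734 in the main fit. Insl5, a hormone of colonic L cells, fell from 41.9 ± 13.8 to 8.68 ± 4.09 TPM (log2 fold change -2.18, limma adjusted p = 0.000484), Pyy, the most abundant in WT, by a log2 value of -1.26 and Gcg by -1.04. Summed TPM was 492, 669, 553, 658 and 567 in WT replicates 1 to 5, was 252, 333, 437 and 360.5 in RhoB-/- replicates 1 to 4 and 327 in the library labelled RhoB-/- replicate 5. Crypt base and proliferation markers were lower in 4 of 11 tested genes, against 13.5% of all tested genes, and higher in 0, with a median of -0.57. Smoc2 was at a log2 fold change of -1.05, Mki67 at -0.69 and Mcm6 at -0.66, and without the library labelled RhoB-/- replicate 5 Smoc2 alone was still called lower. When recentred 1 of these markers was lower, against 771 of all tested genes. Without mitochondrial genes 6 of the markers were, against 3648. With a library left out the count of markers ran from 1 to 8, the latter without RhoB-/- replicate 3, against 2868. Their summed TPM was 312, 343, 291.5, 383.5 and 298 in WT, then 215, 153, 367 and 244 in RhoB-/- replicates 1 to 4 and 200.4 in the library labelled RhoB-/- replicate 5. Pcna was their most abundant gene.

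Tuft markers were higher in 5 of 7 tested genes, and in 3 of 7 without the library labelled RhoB-/- replicate 5. With any library left out 3 to 6 were higher. Only 2 were higher with no filter on low TPM, against 918 of all genes. At a mean TPM of at least 5, 1 was higher, against 814. Among the 5 were Sh2d6 at a log2 fold change of 1.13 and Rgs13 at 0.86. Rgs13 lost its call without the library labelled RhoB-/- replicate 5, at a limma adjusted p of 0.0528. Levels were low, with Sh2d6, the most abundant, averaging 3.17 ± 0.79 TPM in WT and 8.14 ± 1.86 TPM in RhoB-/-. Their sum was 28.1, 11.3, 11.5, 10.3 and 13.6 TPM in WT, then 27.7, 34.9, 27.6 and 40.8 TPM in RhoB-/- replicates 1 to 4 and 34.1 TPM in the library labelled RhoB-/- replicate 5, so that WT replicate 1 lay inside the RhoB-/- range. Of the Paneth and deep crypt secretory markers, Ang4 and Itln1 were the 2 of 6 tested genes called higher, and 0 were lower. Both counts were the same without the library labelled RhoB-/- replicate 5. The defining Paneth genes were at or near 0, with Defa22 listed at 0 in all libraries, Defa17 and Defa24 at 0 in all WT libraries, and Lyz1 averaging 0.35 ± 0.32 TPM in WT and 0.65 ± 0.52 TPM in RhoB-/-. The list summed to between 408 and 721 TPM in WT and between 2481 and 3772 TPM in RhoB-/-, and its most abundant gene was Reg4 in WT (397.5 TPM) and Ang4 in RhoB-/- (2331 TPM).

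Immune markers were called higher in 4 of 6 tested genes (Ptprc, Cd3g, Cd8a and Cd3e), also without the library labelled RhoB-/- replicate 5. Of the 17 markers 11 were below the filter. Cd8a and Lyz2 averaged 0.83 and 0.87 TPM in WT, and passed the filter only through their RhoB-/- levels. The set of tested genes thus depends in part on the change itself, and the share called higher is not evidence of a rise of the list. With a library left out the filter was applied anew, so that the number tested could change, and 4 to 7 were higher. Ptprc, the pan-leukocyte gene and the most abundant of them in RhoB-/-, rose from 1.97 ± 0.57 to 5.92 ± 2.28 TPM (log2 fold change 1.18, limma adjusted p = 0.00321). The summed immune level was 14.1, 7.76, 6.43, 8.27 and 15.2 TPM in WT, was 45.8, 22.2, 26.9 and 26.8 TPM in RhoB-/- replicates 1 to 4 and 45.8 TPM in the library labelled RhoB-/- replicate 5. S100a8 and S100a9 were listed at 0 in all WT libraries. Of stromal, endothelial and muscle markers 2 of 3 tested genes were higher (Dcn at 1.51 and Vim at 0.73), and without the library labelled RhoB-/- replicate 5 Dcn alone was (limma adjusted p of Vim 0.0754). The summed stromal level was 10.3, 11.4, 11.4, 11.6 and 12.9 TPM in WT, was 16.5, 14.8, 19.0 and 28.4 TPM in RhoB-/- replicates 1 to 4 and 55.9 TPM in the library labelled RhoB-/- replicate 5, the highest of all. Vim was the most abundant, and Cdh5, Des, Myh11 and Lum were near 0 in every library. These sums compare with 10467 to 12431 TPM in WT and 10780 to 16570 TPM in RhoB-/- for the general epithelial markers, of which Krt8 was the most abundant.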

How the data were processed

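RNA of colonic IECs was analysed in 5 WT and 5 RhoB-/- libraries, grouped by their labels. The TPM values were deposited by the authors, whose processing notes name HISAT2, StringTie, RSEM and edgeR and the build GRCm38.p6; the annotation release is not given in the sources used here. TPM keeps no depth, so the counting error is unknown. Genes with a mean of at least 1 TPM were fitted on log2(TPM + 1) with limma 3.58.1 (trend) in R 4.3.3, which understates changes of low genes, and the fit was tested on simulated data. Ratios were tested by exact two-sided permutation in Python 3.11.15. The sample labels number the replicates without naming the mice, and the study gives its n by genotype.

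The genes named are the 10 members, Rhob, the most abundant tested gene of each list by its mean over all libraries, with up to 3 largest rises and 3 largest falls among its calls (less 2 genes not used here), and the 5 genes most like Muc2. Other genes, and the pairs with r beyond 0.7, were chosen after their values were seen. The members and the 15 lists were chosen with earlier results of these data known. Of the listed names, Fam3d was not matched, and Ddit3, whose symbol has more than 1 gene ID, was left out. Alternatives were another pseudocount, other filters, a replicate block, recentring, quantile normalization, TPM without mitochondrial genes, limma without trend, the study's threshold and each library left out. For the ratios and the correlations only the other pseudocount and each library left out were run. Those for the correlations were added after the data were seen.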

Additional observations from a re-analysis of the deposited data

Results flagged for a closer look

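Within each genotype, 114 sets of 5 values were examined for a library far from the others, for the 57 members and other named genes apart from those most like Muc2. Chance alone sets apart about 1 in 20 such sets, or 5.70 here, and 6 were found. Rhob reached 110.87 TPM in the library labelled RhoB-/- replicate 5 and at most 0.57 TPM in the other RhoB-/- libraries. Spink4 was at 4796.51 TPM in RhoB-/- replicate 3, and the other RhoB-/- libraries lay between 2329 and 3014 TPM.

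RhoB-/- replicate 3 was also apart for Marcks, a regulator of granule release, at 17.81 TPM against 7.44 to 10.2 TPM in the rest of its group, and for Itln1, at 31.09 TPM against 52.3 to 56.6 TPM. WT replicate 1 was apart for Retnlb, at 297.51 TPM against 66.0 to 118 TPM and for Clca4b, at 3.24 TPM against 1.46 to 1.85 TPM. WT replicate 1 had the highest mitochondrial share of TPM, 26.5%, and RhoB-/- replicate 3 the lowest, 10.3%. The part of that share in these values was not tested.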

How the results depend on the processing

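Clca1, Fcgbp and Creb3l1 were called under each of the 18 alternatives, at log2 fold changes of 1.63 to 2.07, 0.80 to 1.08 and -0.84 to -0.64, and Spink4 under 10. With limma, 836 genes were higher and 1059 lower with the replicate block, and 3 members were higher and 1 lower, as without it. Same-numbered libraries were correlated at -0.0874 to 0.072, and 1 of 5 WT libraries correlated best with its own number. These values gave no sign of pairing by number, but they cannot exclude it, and the labels do not say. Quantile normalization gave 1587 higher genes. Lower genes numbered 1104 at a mean TPM of at least 5, 771 when recentred, 3648 without mitochondrial genes, 1072 at the study's threshold and 853 to 2868 with a library left out. Agr2 joined Creb3l1, giving 2 lower members, with a pseudocount of 0.1, a mean TPM of at least 5, quantile normalization, no mitochondrial genes and the study's threshold, and with a library left out 1 to 2 were lower. Ratios to the epithelial markers past the threshold numbered 0 to 5 with a library left out. Signs turned for Spdef (-0.0214) and Atoh1 (-0.0285) without mitochondrial genes, for Foxa3 when recentred (0.116) and after quantile normalization (0.0431), and for Hspa5 after quantile normalization (-0.105) and without mitochondrial genes (-0.0667). With a library left out the log2 fold changes ran from -0.0551 to 0.157 for Spdef, from -0.0717 to 0.11 for Atoh1, from -0.0782 to 0.0324 for Foxa3 and from -0.0516 to 0.132 for Hspa5, and the ratio of Tff3 to the epithelial markers ran from -0.0458, without WT replicate 1, to 0.171. None of these was called. The cause was not tested.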

Other observations

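Of 20 tested genes of granule exocytosis 3 were higher and 3 lower with limma, against 7.73% and 13.5% of all tested genes, at a median log2 fold change of 0.09, and without the library labelled RhoB-/- replicate 5 these counts were 2 and 2, Rab27a (adjusted p = 0.0549) and Marcks (0.0724) having lost their calls. The lower share was near that of all genes, and the counts were 5 higher after quantile normalization and 5 lower without mitochondrial genes. Of all tested genes 1587 were higher after quantile normalization and 3648 lower without mitochondrial genes. Stx3, a syntaxin of apical membranes, rose from 23.6 ± 2.10 to 36.4 ± 3.72 TPM (SD, n = 5 each; log2 fold change 0.60, limma adjusted p = 0.00198), with no overlap between the groups. Rab27a, a GTPase that docks granules, was higher at 0.36. Marcks was lower at -0.68, Unc13b, a priming factor of secretory granules, at -0.61 and Rab3d, a GTPase of secretory granules, at -0.55. Vamp8, the granule SNARE of goblet cells and the most abundant gene of the list, averaged 149 ± 23.6 TPM in WT and 191 ± 29.0 TPM in RhoB-/- (adjusted p = 0.0843).

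Mucins and trefoil factors of other organs were low in all libraries. Muc5ac, Muc5b and Muc19 had means below 0.04 TPM in either genotype. Muc6 averaged 1.41 ± 0.74 TPM in WT and 0.39 ± 0.20 TPM in RhoB-/- (SD, n = 5 each; exact permutation p = 0.00794, not adjusted), with every RhoB-/- library below every WT library. Tff2 was at 0.75 ± 0.35 and 0.18 ± 0.22 TPM (exact permutation p = 0.0238, not adjusted). Both were below the filter and were singled out after their values were seen.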
